A study of Rattus norvegicus with 6 samples.

Results

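The 10 genes described here are Dusp1, which encodes a phosphatase that switches off MAP kinases, and the immediate early genes Fos, Fosb, Jun, Junb, Atf3, Egr1, Myc, Ier2 and Ier3. Their probe sets were taken by symbol from the annotation table of the array: a probe set belonged to a gene when that gene was the single symbol listed for it. This gave 14 probe sets (2 for Dusp1, 2 for Fos, 3 for Jun and 1 for each other gene) of 31042 on the array, or 10 of the 14217 genes with a probe set of their own, and each of the 14 is shown. Liver RNA was measured on 6 rat arrays, with 2 arrays in each of 3 groups. BBDR.lyp/lyp rats carry the lyp mutation on both chromosomes, a frameshift of Gimap5 with which T cells are scarce and diabetes comes on spontaneously, and were sampled at 50 days, before hyperglycemia (pre-hyperglycemia), and at 55 days, shortly after its onset (post-hyperglycemia). BBDR.+/+ rats of 55 days have no mutation at the locus and are diabetes resistant, although diabetes can be induced in them. All 3 groups share the BBDR background, and the design gives both ages with a margin of days, so pre-hyperglycemia differs from the other groups in age as well. The sample labels state a fast before the liver was taken, the methods name food only for housing, and the kit named for amplification differs between them. No label ties an array to an animal, so p-values measure the spread between these samples, which may be technical.

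Immediate early genes are transcribed within minutes of a signal, without new protein synthesis, because the factors that switch them on are already present in the cell. MAP kinase cascades act on such factors, among them the ternary complex factors that work with SRF and the CREB family that binds the cyclic AMP response element (CRE). Fos and Jun proteins pair to form AP-1, Egr1 and Myc encode further transcription factors, and Dusp1 encodes a nuclear phosphatase that removes phosphate from p38, JNK and ERK and so closes the loop. In liver these genes are known for their rapid rise after partial hepatectomy, growth factors, endotoxin and cell stress, and Dusp1 is also a glucocorticoid target. Their transcripts are short lived, and handling of tissue is known to induce several of them.

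Upstream sequence was on hand for 5 of the 10 genes (Dusp1, Fosb, Junb, Egr1 and Ier2), from RefSeq on the rat assembly GRCr8. The 250 bases before the gene start are printed for Dusp1, the gene whose signal differed most, and for Ier2, because these were the members with a complete CRE there and of the pair limma called Dusp1 alone. Capitals mark the CRE, TGACGTCA, and both lines run 5′ to 3′ on the plus strand. The Dusp1 stretch is chr10:17184603-17184852 and the Ier2 stretch is chr19:40399123-40399372.
Dusp1: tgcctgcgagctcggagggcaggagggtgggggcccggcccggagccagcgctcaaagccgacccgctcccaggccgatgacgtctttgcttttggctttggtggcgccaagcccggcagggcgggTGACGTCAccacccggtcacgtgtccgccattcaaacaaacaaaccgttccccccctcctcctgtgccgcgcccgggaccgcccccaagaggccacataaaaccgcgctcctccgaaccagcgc
Ier2: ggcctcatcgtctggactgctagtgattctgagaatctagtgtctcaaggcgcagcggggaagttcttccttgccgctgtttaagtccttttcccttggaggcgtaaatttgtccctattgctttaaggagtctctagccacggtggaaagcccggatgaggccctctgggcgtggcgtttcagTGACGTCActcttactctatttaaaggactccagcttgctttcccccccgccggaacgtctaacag
The CRE starts at -124 in Dusp1 and at -66 in Ier2, counted from the gene start, and 1.59% of the 33465 upstream stretches of this length hold one. The core TGACG, which overlaps the CRE on both strands, matched 3 times in Dusp1, 2 times in Ier2 and in Egr1, and 1 time in Junb, beside 18.2% of all stretches with at least 1. Dusp1 also holds an E-box, CACGTG, at -107, a sequence that Myc with Max and the circadian clock factors can bind and that 5.59% of stretches hold. Egr1 holds 2 CArG boxes, the SRF element, at -105 and -83, beside 1.5% of stretches with at least 1. The AP-1 site TGACTCA, present in 4.05% of all stretches, matched in none of the 5, and Fosb held none of the motifs searched. Each motif was searched on both strands, and a match says only that the letters are there.

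Signals are the deposited log2 values, and differences are taken across arrays for one probe set. Probes bind with different strength, so where signals of different probe sets are set side by side (a share of probe sets dimmer, a gap between probe sets of a gene) they rank signals and not amounts of RNA. For brevity, a difference against BBDR.+/+ or pre-hyperglycemia is the post-hyperglycemia value minus that group, and a difference before hyperglycemia is pre-hyperglycemia minus BBDR.+/+. A call means a Benjamini-Hochberg adjusted p under 0.05 over all 31042 probe sets in limma, fitted with 1 mean per group. Hepatocyte genes checked the tissue: the linear signal of 9 of them, Alb and Apob among these, summed over the brightest probe set of each, lay between 125500 and 127100 on the 6 arrays. Among their other probe sets limma called some of Cps1, Hnf4a and Fga against BBDR.+/+ and of Hnf4a against pre-hyperglycemia, genes named after their values were seen. Arrays of a group correlated at 0.9959 to 0.9967 and arrays of different groups at 0.9904 to 0.9958. The arrays differed in the controls that read the 3' end and the 5' end of the beta-actin and GAPDH transcripts. The log2 signal at the 3' end minus that at the 5' end rises as less of the 5' end is represented in the labelled RNA. On the post-hyperglycemia arrays the beta-actin difference was 2.11 and 2.04 log2 units, against 1.12 to 1.51 on the other 4, and the GAPDH difference was 1.37 and 1.33 against 0.444 to 0.720.

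Dusp1 was lower after hyperglycemia than in BBDR.+/+ liver on both of its probe sets, and lower than before hyperglycemia on one of them, 1368147_at. The signs here follow the deposited sample labels, and they oppose the sign that the study lists for Dusp1. In size, both fold changes that the study lists for Dusp1 equal those of 1368147_at given below, to within rounding. Its methods describe a mean over earlier samples, and its results name BBDR.lyp/+ beside BBDR.+/+ rats. The column of fold changes that lists Dusp1 is headed with BBDR.+/+ alone. The reason for the opposite sign was not tested. The gene lies at chr10:17184853-17187646. On 1368147_at the signal was 9.38 and 9.84 in BBDR.+/+, 8.73 and 9.21 before hyperglycemia, and 7.38 and 7.81 after it. Each group lay apart from the others, with BBDR.+/+ highest and post-hyperglycemia lowest. Against BBDR.+/+ the post-hyperglycemia signal fell by 2.02 log2 units, or 4.05-fold (SE 0.20, 95% CI -2.45 to -1.58, limma adjusted p = 5.87e-04). Against pre-hyperglycemia it fell by 1.37, or 2.59-fold (SE 0.20, 95% CI -1.81 to -0.94, limma adjusted p = 0.00745), a call that was lost without post-hyperglycemia replicate 1 (-1.16, adjusted p = 0.0551). The remaining step, pre-hyperglycemia minus BBDR.+/+, was -0.64 (95% CI -1.08 to -0.21) with an adjusted p of 0.215, so these neighbours in the order did not pass the test. Rank product, the second test that the methods name, called 1368147_at lower in all 3 comparisons. Its shares of false positives were 0.00111, 0.00556 and 0.124, against a threshold of 0.20. The t-test, the first test named there, called 1368147_at in none of them (t-test adjusted p = 0.442, 0.555 and 0.696).

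The brighter Dusp1 probe set, 1368146_at, with 99.0% of all probe sets dimmer, moved less. Its signal was 12.66 and 12.56 in BBDR.+/+, 12.30 and 12.35 before hyperglycemia, and 12.10 and 12.10 after it. The order of the groups was that of 1368147_at and no groups overlapped, but the whole span of the group means was 0.51 log2 units. Post-hyperglycemia was 1.42-fold below BBDR.+/+ (-0.51, SE 0.10, 95% CI -0.73 to -0.28, limma adjusted p = 0.0169). This call did not survive the loss of any array of its own comparison: without BBDR.+/+ replicate 1 or 2 the difference was -0.46 and -0.56 (adjusted p = 0.109 and 0.0937), and without post-hyperglycemia replicate 1 or 2 it was -0.50 and -0.51 (adjusted p = 0.0662 and 0.0629). The other steps of 1368146_at were -0.22 against pre-hyperglycemia (adjusted p = 0.333) and -0.28 for pre-hyperglycemia against BBDR.+/+ (adjusted p = 0.294). Rank product called 1368146_at in no comparison, with shares of false positives of 0.35, 0.941 and 0.822 in the same order of comparisons. Nor did the t-test call it (t-test adjusted p = 0.439, 0.518 and 0.526). With the mean of both probe sets as the value of the gene, Dusp1 fell by 1.26 against BBDR.+/+ (adjusted p = 0.00109) and by 0.80 against pre-hyperglycemia (adjusted p = 0.0126), and its difference before hyperglycemia was -0.46 (adjusted p = 0.10). In whole liver RNA, fewer cells of a type and less RNA per cell cannot be told apart.

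**Figure D1:**
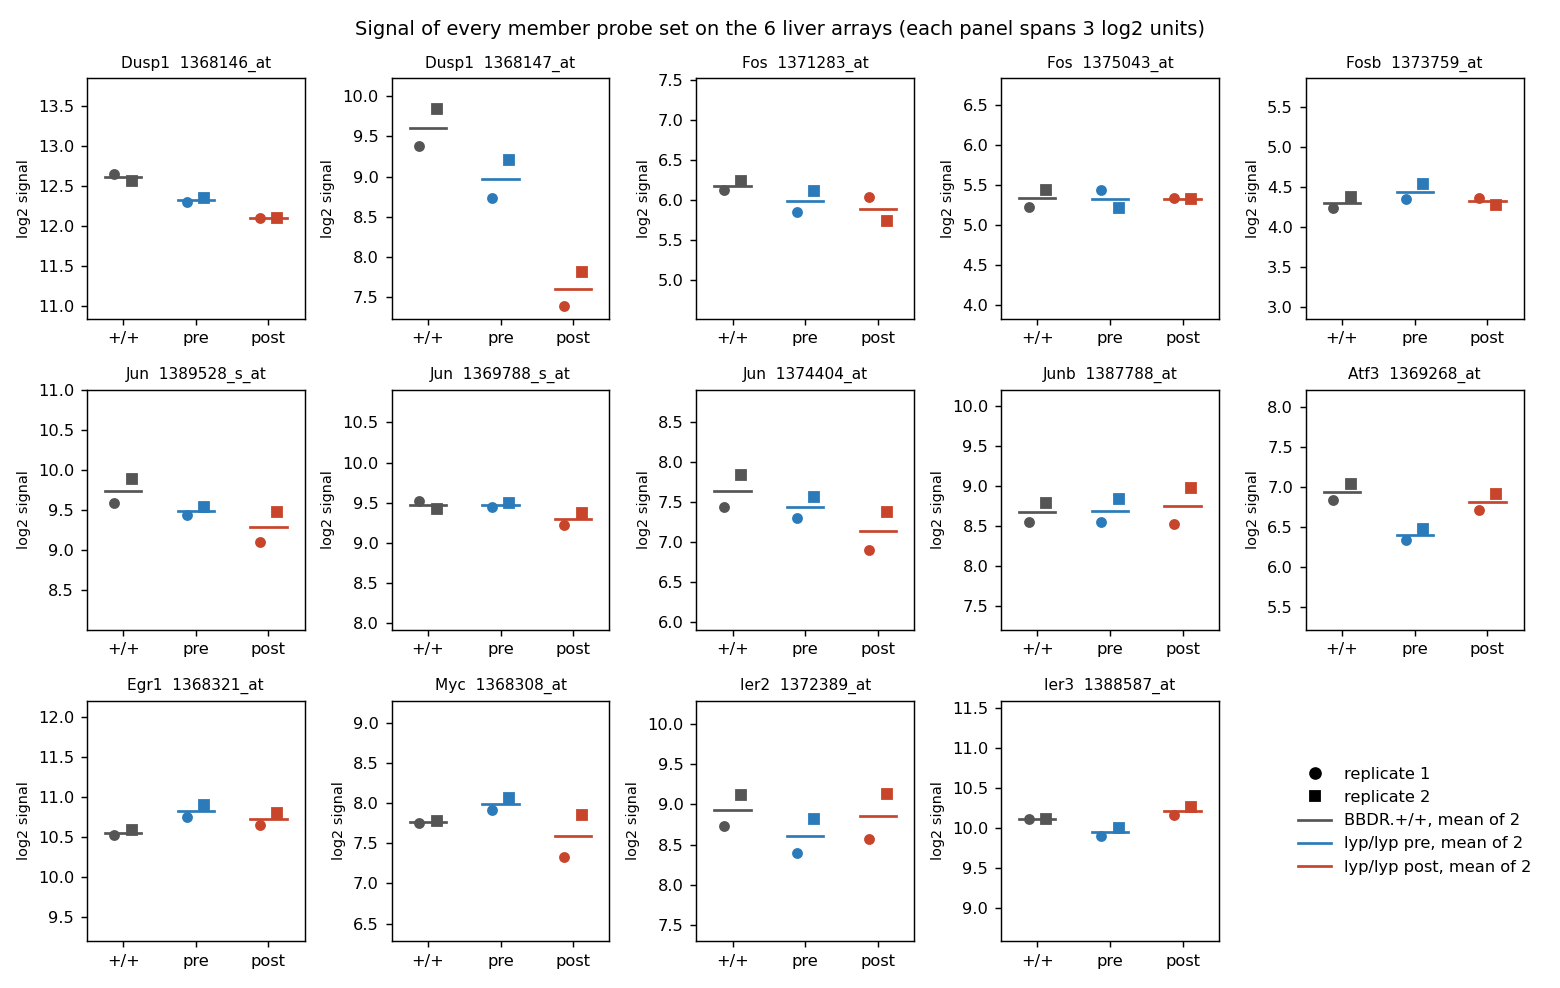
Log2 signal (y axis) of each of the 14 probe sets on the 6 arrays, by group (x axis), with circles for replicate 1, squares for replicate 2 and a bar for the mean of 2. Dusp1 1368147_at steps down from 9.38 and 9.84 in BBDR.+/+ to 7.38 and 7.81 after hyperglycemia, while Fos 1375043_at, Fosb and Junb lie level.

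Because both Dusp1 probe sets report one gene, their gap on each array was set beside the control transcripts. The gap, 1368146_at minus 1368147_at, was 3.27 and 2.72 log2 units in BBDR.+/+, 3.57 and 3.14 before hyperglycemia, and 4.72 and 4.29 after it. The 6 arrays fell in the same order by this gap as by the 3' minus 5' difference of beta-actin, and for GAPDH the arrays at places 3 and 4 changed places. For Jun the gap between 1389528_s_at and 1374404_at gave another order of arrays: it was 2.16 and 2.06 in BBDR.+/+, 2.14 and 1.99 before hyperglycemia, and 2.20 and 2.10 after it, and the groups overlapped. A second Jun gap, 1369788_s_at minus 1374404_at, had group means in the order of the Dusp1 gap. They were 1.83 in BBDR.+/+, 2.04 before hyperglycemia and 2.16 after it. Post-hyperglycemia replicate 1 had the largest of these gaps and BBDR.+/+ replicate 2 the smallest. The groups overlapped here too, with post-hyperglycemia replicate 2 below replicate 1 of both other groups. On the Dusp1 gap and on the controls the post-hyperglycemia arrays stand apart, so no correlation over the 6 arrays is given. With the mean control difference as a covariate in limma, 1368147_at was -0.20 against BBDR.+/+ and 0.21 against pre-hyperglycemia, no longer called in either, and 1368146_at was -0.65 against BBDR.+/+. In that fit 0 of 31042 probe sets were called in either comparison with post-hyperglycemia, since the control difference separates this group from the others. The part of the 3' to 5' difference in the Dusp1 result was not tested.

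**Figure D2:**
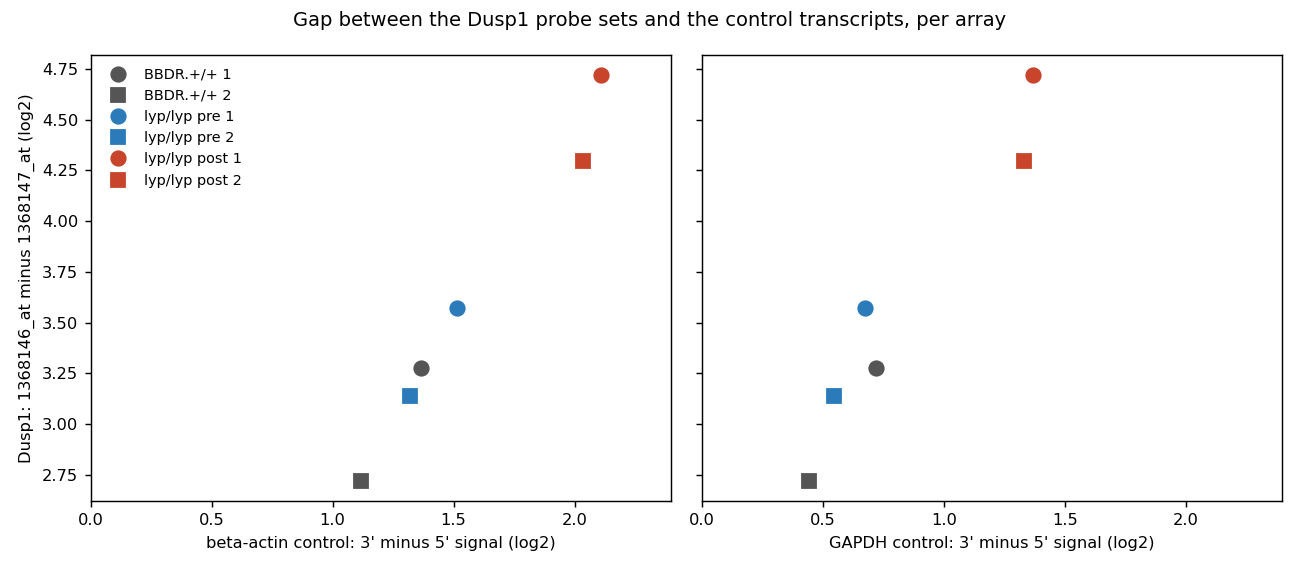
Gap between the Dusp1 probe sets (y axis, log2 units) against the 3' minus 5' difference of the beta-actin control (left x axis) and of the GAPDH control (right x axis), 1 point per array. The post-hyperglycemia arrays have gaps of 4.72 and 4.29 and lie apart from the other 4 on both controls.

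Counted over all members, post-hyperglycemia against BBDR.+/+ gave 2 of 14 probe sets called lower, both of Dusp1, beside 3.26% of all probe sets, and 0 of 14 called higher, beside 1.89%. An unadjusted limma p under 0.05 was reached by 4 of the 14, beside 19.7% of all, and rank product called 1 lower, beside 1.79% of all. The arrays of the groups did not overlap for 8 of 14 (6 lower, 2 higher), beside 48.8% of all probe sets. Post-hyperglycemia against pre-hyperglycemia gave 1 of 14 called lower, beside 1.46%, and 0 called higher, beside 0.718%, with 5 of 14 under an unadjusted p of 0.05, beside 14.9% of all. Rank product called the same probe set, Dusp1 1368147_at, beside 1.25% of all called lower, and 6 of 14 did not overlap (4 lower, 2 higher), beside 44.5%. Pre-hyperglycemia against BBDR.+/+ gave 0 of 14 called in limma, beside 0.464% of all called higher and 0.254% called lower, with 4 of 14 under an unadjusted p of 0.05, beside 11.4% of all. Rank product called 1 of 14 lower there, beside 0.564%, and 8 of 14 did not overlap (6 lower, 2 higher), beside 42.6%. The median difference of the 14 was -0.15, -0.11 and -0.18 in these comparisons, beside 0.0122, 0.0085 and -0.0034 over all probe sets. Every pair of comparisons shares a group, so their members' values are given side by side and not set against each other. Apart from Dusp1, no member was called in any comparison by rank product or by limma as fitted here to all 6 arrays. Some of the alternative fits given below called others.

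**Figure D3:**
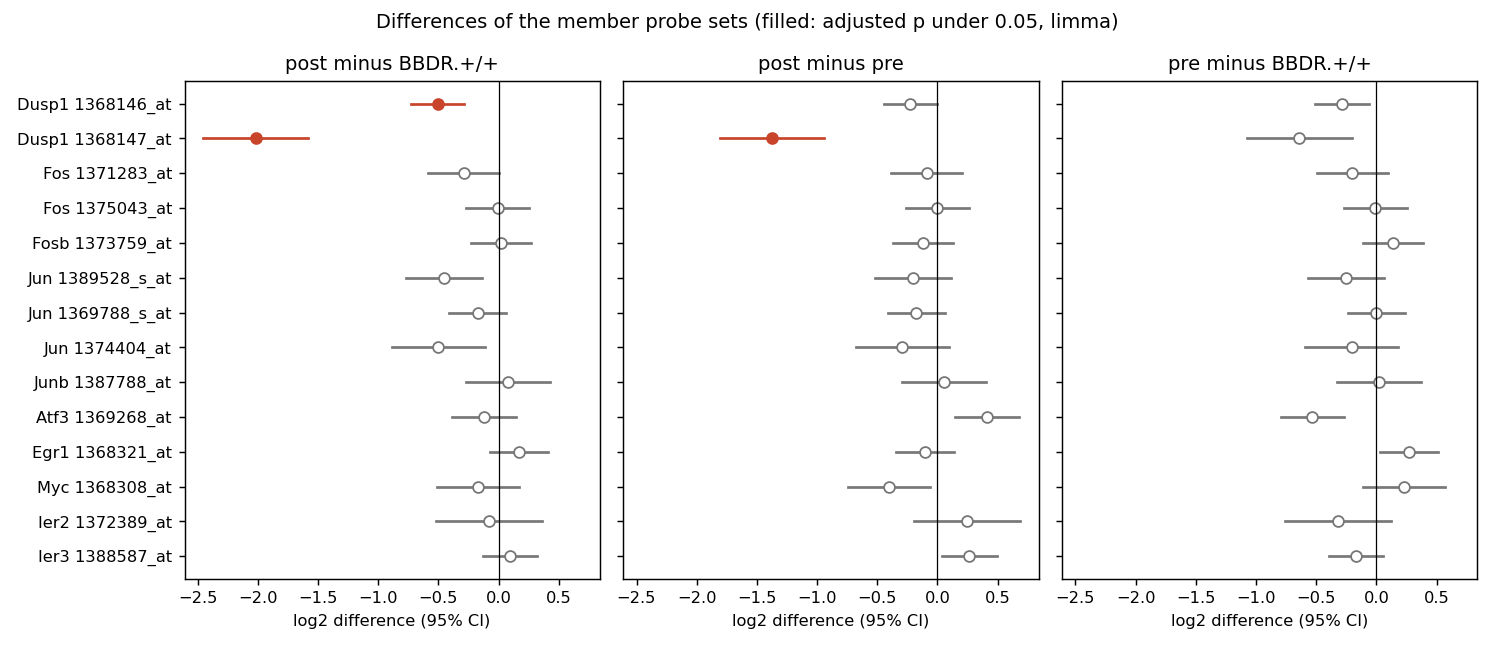
Log2 difference (x axis) with its 95% confidence interval for each member probe set (rows) in the 3 comparisons, filled where the limma adjusted p was under 0.05. Only Dusp1 is filled: both probe sets in post minus BBDR.+/+ (-0.51 and -2.02) and 1368147_at in post minus pre (-1.37).

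Fos and Fosb encode the partners that Jun proteins take up in AP-1, and neither differed past the test. Fos (chr6:110852188-110855054) gave 6.12 and 6.24 in BBDR.+/+, 5.85 and 6.12 before hyperglycemia, and 6.04 and 5.74 after it on 1371283_at. Both post-hyperglycemia values lay below both BBDR.+/+ values there, and pre-hyperglycemia overlapped post-hyperglycemia. The difference from BBDR.+/+ was -0.29 after hyperglycemia (95% CI -0.58 to 0.01, limma adjusted p = 0.267). The other Fos probe set, 1375043_at, read 5.23 and 5.45 in BBDR.+/+, 5.45 and 5.22 before hyperglycemia, and 5.34 and 5.33 after it, so the groups overlapped throughout. Its differences were -0.01, 0.00 and -0.01 in post-hyperglycemia against BBDR.+/+, post- against pre-hyperglycemia, and pre-hyperglycemia against BBDR.+/+, with intervals that end within 0.27 of 0.

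Fosb (chr1:88082324-88089506, 1373759_at) was the dimmest of the 14, with 22.2% of all probe sets dimmer. It gave 4.23 and 4.37 in BBDR.+/+, 4.34 and 4.54 before hyperglycemia, and 4.36 and 4.28 after it, and all groups overlapped. The largest of its 3 differences was 0.14, before hyperglycemia against BBDR.+/+ (95% CI -0.11 to 0.39), and the others were 0.02 and -0.12.

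Jun, the AP-1 subunit that JNK phosphorylates, had 3 probe sets that did not move alike. The gene lies at chr5:115009900-115012993, and the suffix _s_at marks probes that may match more than one transcript. On 1389528_s_at the signal was 9.59 and 9.89 in BBDR.+/+, 9.44 and 9.55 before hyperglycemia, and 9.11 and 9.47 after it. On 1374404_at it was 7.44 and 7.84, then 7.30 and 7.56, then 6.90 and 7.37, in the same order of groups. Both probe sets were lowest after hyperglycemia with no overlap with BBDR.+/+, and both overlapped between pre- and post-hyperglycemia. The difference from BBDR.+/+ was -0.45 (SE 0.14, unadjusted p = 0.00946, limma adjusted p = 0.105) on 1389528_s_at and -0.50 (SE 0.17, unadjusted p = 0.0158, adjusted p = 0.138) on 1374404_at. The third Jun probe set, 1369788_s_at, read 9.52 and 9.42 in BBDR.+/+, 9.44 and 9.50 before hyperglycemia, and 9.22 and 9.37 after it. Its post-hyperglycemia values were below all others, but by only -0.17 against either group (limma adjusted p = 0.418 and 0.502), and its difference before hyperglycemia was 0.00. As the mean of its 3 probe sets Jun was -0.38 against BBDR.+/+ (adjusted p = 0.105), -0.22 against pre-hyperglycemia (adjusted p = 0.408) and -0.15 before hyperglycemia (adjusted p = 0.647).

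Junb, a weaker activator that competes with Jun for Fos partners, showed no separation of the groups. Junb (chr19:40081126-40082910, 1387788_at) gave 8.55 and 8.78 in BBDR.+/+, 8.55 and 8.83 before hyperglycemia, and 8.53 and 8.97 after it. The gap between the 2 arrays of each group exceeded every difference between groups. Its differences were 0.08 (95% CI -0.27 to 0.43) against BBDR.+/+, 0.06 against pre-hyperglycemia and 0.02 before hyperglycemia.

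Atf3, a stress-induced bZIP factor that acts mostly as a repressor, was lowest before hyperglycemia. On 1369268_at (chr13:105274103-105331653) the signal was 6.83 and 7.03 in BBDR.+/+, 6.33 and 6.47 before hyperglycemia, and 6.71 and 6.91 after it. The pre-hyperglycemia arrays were below all 4 others, and post-hyperglycemia overlapped BBDR.+/+. Pre-hyperglycemia minus BBDR.+/+ was -0.53 (SE 0.12, 95% CI -0.79 to -0.27, unadjusted p = 0.00103), with a limma adjusted p of 0.0855 that misses the threshold, and its share of false positives in rank product was 0.207. Post- minus pre-hyperglycemia was 0.41 (SE 0.12, 95% CI 0.15 to 0.67, adjusted p = 0.117), and post-hyperglycemia minus BBDR.+/+ was -0.12 (adjusted p = 0.648). With arrays centred on ribosomal protein probe sets, which raised the median of all probe sets by 0.11 in post- against pre-hyperglycemia, Atf3 passed the limma test there (0.52, adjusted p = 0.0485).

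Egr1 encodes a zinc finger factor that SRF and its partners induce through CArG boxes, and it was bright in all groups. Egr1 (chr18:26737078-26740877, 1368321_at) read 10.52 and 10.58 in BBDR.+/+, 10.75 and 10.90 before hyperglycemia, and 10.65 and 10.79 after it. Both BBDR.+/+ arrays were below the 4 BBDR.lyp/lyp arrays, which overlapped each other. The difference from BBDR.+/+ was 0.27 before hyperglycemia (95% CI 0.03 to 0.51, limma adjusted p = 0.36) and 0.17 after it (adjusted p = 0.444), and post- minus pre-hyperglycemia was -0.10 (adjusted p = 0.739).

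Myc encodes a bHLH factor that drives ribosome and nucleotide synthesis with its partner Max. Myc (chr7:95483105-95488031, 1368308_at) gave 7.75 and 7.77 in BBDR.+/+, 7.91 and 8.07 before hyperglycemia, and 7.33 and 7.86 after it. The pre-hyperglycemia arrays were above the others, and the post-hyperglycemia arrays lay on either side of BBDR.+/+. Post- minus pre-hyperglycemia was -0.40 (SE 0.15, 95% CI -0.74 to -0.06, unadjusted p = 0.0255, limma adjusted p = 0.244), and without post-hyperglycemia replicate 2 it was -0.67 with an adjusted p of 0.038. Post-hyperglycemia minus BBDR.+/+ was -0.17 with post-hyperglycemia replicate 1 and 0.091 without it, and pre-hyperglycemia minus BBDR.+/+ was 0.23 (adjusted p = 0.641).

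Ier2, a nuclear protein of the early response, varied inside each group by more than the groups differed. Ier2 (chr19:40399373-40400897, 1372389_at) gave 8.74 and 9.12 in BBDR.+/+, 8.40 and 8.82 before hyperglycemia, and 8.57 and 9.13 after it, and all groups overlapped. The differences were -0.08 (95% CI -0.52 to 0.36) against BBDR.+/+, 0.24 (95% CI -0.20 to 0.68) against pre-hyperglycemia and -0.32 (95% CI -0.76 to 0.12) before hyperglycemia, and none was called. Ier3, which acts on cell survival and ERK signalling, varied little within groups. Ier3 (chr20:2933173-2934377, 1388587_at) read 10.11 and 10.12 in BBDR.+/+, 9.90 and 9.99 before hyperglycemia, and 10.16 and 10.26 after it. Its groups did not overlap, with pre-hyperglycemia lowest and post-hyperglycemia highest, yet no difference passed the test: 0.26 for post- minus pre-hyperglycemia (95% CI 0.04 to 0.49, limma adjusted p = 0.248), 0.10 against BBDR.+/+ (adjusted p = 0.676) and -0.17 before hyperglycemia (adjusted p = 0.592).

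Related genes were counted from lists, by probe set and by the same limma call, which 5.15%, 2.18% and 0.718% of all probe sets passed in either direction in post-hyperglycemia against BBDR.+/+, post- against pre-hyperglycemia, and pre-hyperglycemia against BBDR.+/+. Shares of a list are given beside these as a description. Of 15 probe sets for 11 other AP-1 and related bZIP genes (Fosl1, Fosl2, Jund, Atf2 and others), 0 were called in any comparison, with 2, 1 and 2 under an unadjusted p of 0.05 and 0 in rank product, in that order. Their median differences were -0.09, -0.05 and -0.03. Among 56 probe sets for 35 other early response genes, 3 were called higher and 5 lower against BBDR.+/+, 0 and 2 against pre-hyperglycemia, and 2 and 0 before hyperglycemia (14.3%, 3.57% and 3.57%). Klf2, a factor of endothelium and resting lymphocytes that flow induces, was higher than in BBDR.+/+ by 0.90 after hyperglycemia (SE 0.12, adjusted p = 0.00212) and by 0.92 before it (adjusted p = 0.00688) on its brightest probe set, 1376569_at. None of its other 4 probe sets passed, and after hyperglycemia 3 of these had the opposite sign (-0.21, -0.17 and -0.065) and 1 gave 0.27. Klf4, a related zinc finger factor, was higher by 0.72 after hyperglycemia (adjusted p = 0.0049) and by 0.58 before it (adjusted p = 0.0487). Klf10, a TGF-beta induced repressor, fell by 0.70 against BBDR.+/+ (adjusted p = 0.00709), and Bhlhe40, a repressor tied to the clock and hypoxia, fell by 0.76 against pre-hyperglycemia (adjusted p = 0.0181). Bhlhe40 was also called lower against BBDR.+/+ (-0.75, adjusted p = 0.0106), a call not among the named calls counted below. Of the 3 Klf6 probe sets, the dim 1395557_at fell by 0.96 against BBDR.+/+ (adjusted p = 0.00896) and by 1.01 against pre-hyperglycemia (adjusted p = 0.0143), while the brightest, 1387060_at, gave 0.12 and -0.36 (adjusted p = 0.739 and 0.307).

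Of 19 probe sets for 15 other MAP kinase phosphatases and feedback genes, 1 was called higher and 1 lower against BBDR.+/+ (10.5%) and 0 in the other comparisons, where 5 and 3 had an unadjusted p under 0.05 and rank product called 0. Dusp6, the cytoplasmic ERK phosphatase, was higher on 1377064_at by 0.45 (adjusted p = 0.0422), and its other probe sets gave 0.56 and 0.12 without passing. Rasa1, which turns off Ras, fell by 0.78 on 1370085_at (adjusted p = 0.0119) and gave -0.17 on its brighter probe set. Of 41 probe sets for 19 MAP kinases and the nuclear factors they act on, 2 were called higher and 3 lower against BBDR.+/+ (12.2%), and 1 lower against pre-hyperglycemia (2.44%). Before hyperglycemia 0 of the 41 were called, with 5 under an unadjusted p of 0.05 and 0 in rank product. Mapk9, which encodes JNK2, fell on 1368646_at by 1.19 against BBDR.+/+ (SE 0.15, adjusted p = 0.00172) and by 0.95 against pre-hyperglycemia (adjusted p = 0.011), and its brighter probe set gave -0.61 and -0.55 (adjusted p = 0.0553 and 0.121). Creb1, which encodes a CRE-binding factor, fell by 0.55 against BBDR.+/+ on its brightest probe set, 1375655_at (adjusted p = 0.0199), and its other 3 gave -0.074, 0.12 and 0.066 without passing. The ternary complex factors Elk4 and Elk1 were higher there by 0.67 and 0.48 on their brightest probe sets (adjusted p = 0.0212 and 0.0272), and their others, which did not pass, gave 0.14 and -0.018 for Elk4 and -0.22 for Elk1.

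For Myc, 19 probe sets of 13 network genes held 1 called higher (Mga, a Max-binding repressor, 0.55, adjusted p = 0.0111, with 0.064 and 0.032 on its other probe sets) and 1 lower (Max on 1387646_a_at, -0.49, adjusted p = 0.0222, with 0.18 on its brighter probe set) against BBDR.+/+ (10.5%). The other comparisons gave 0 calls of the 19 in limma and in rank product, with 3 and 5 under an unadjusted p of 0.05. Of 25 probe sets for 19 Myc target genes, 2 were called higher and 1 lower against BBDR.+/+ (12.0%), 1 higher against pre-hyperglycemia (4.0%), and 0 before hyperglycemia (6 under an unadjusted p of 0.05, 0 in rank product). Nop58, a nucleolar ribosome assembly protein, was higher by 0.66 and 0.63 after hyperglycemia (adjusted p = 0.0163 and 0.0354), and Tfrc, the transferrin receptor, by 0.50 against BBDR.+/+ on 1388750_at (adjusted p = 0.0176), where its other probe set, 1371113_a_at, gave -0.58 (adjusted p = 0.0632). Ppat, the first enzyme of purine synthesis, fell by 0.88 against BBDR.+/+ (adjusted p = 0.0043). Of 21 probe sets for 14 genes of the integrated stress response around Atf3, Sesn2, a stress-induced brake on mTORC1, was higher (1396901_at, 0.64, adjusted p = 0.0147) and Cebpg, a bZIP partner of Atf4, fell (1371038_at, -0.62, adjusted p = 0.0235) against BBDR.+/+, and their brightest probe sets gave 0.35 and 0.0091 without passing (9.52% called). The 21 had 0 limma calls in the other comparisons, where 2 and 5 had an unadjusted p under 0.05 and rank product called 0 and 1. The named calls of list genes and cell markers number 36. With the 3' to 5' covariate, 3 of the 36 stayed, 23 were lost and 10 changed sign, Mapk9 in both comparisons among these. Loss of 1 array leaves the 3' to 5' difference in place, since both post-hyperglycemia arrays share it. Of all 36 such calls of list genes and of the cell markers named, 5 were kept with every array left out in turn (Klf2 and Mapk9 after hyperglycemia against BBDR.+/+, S100a9 before and after hyperglycemia, and S100a8 after it) and 31 were lost without at least 1 array, 27 of them without BBDR.+/+ replicate 2.

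**Figure D4:**
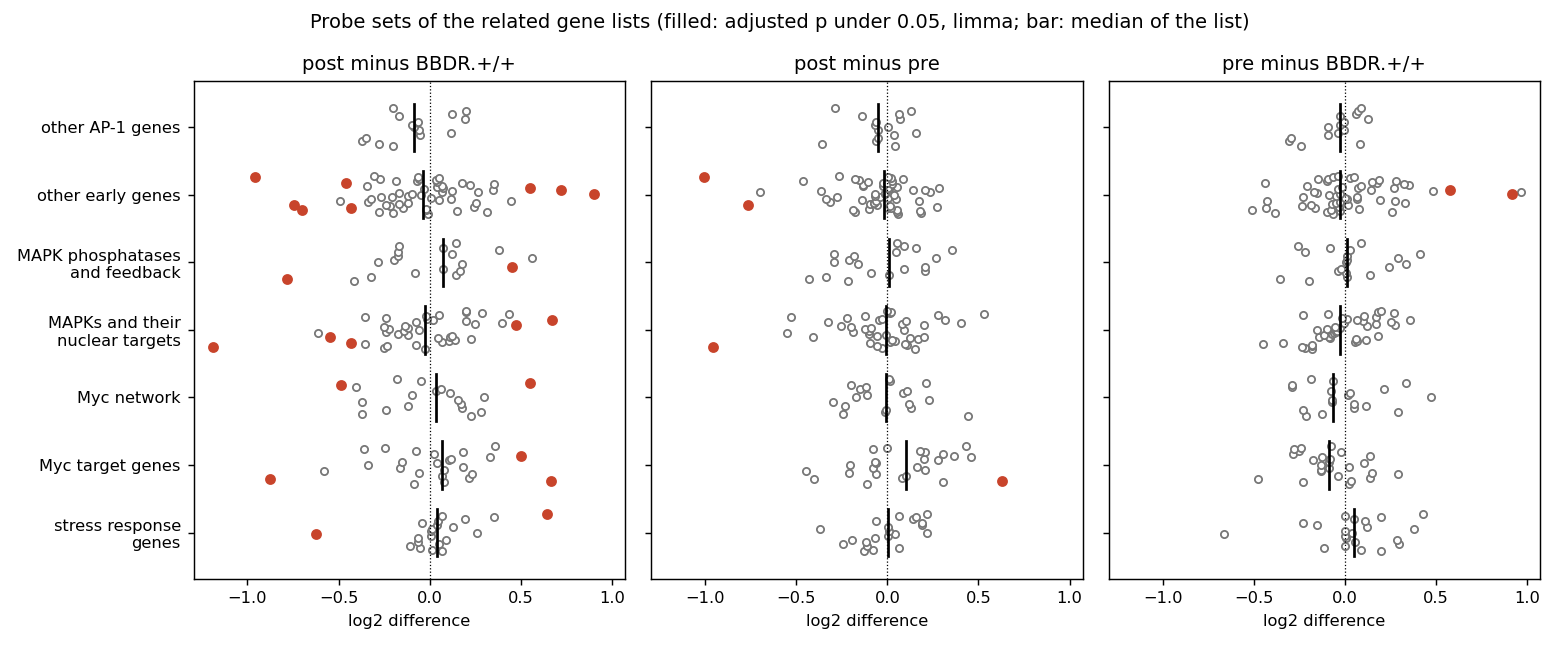
Log2 difference (x axis) of each probe set of the 7 related gene lists (rows) in the 3 comparisons, filled where the limma adjusted p was under 0.05, with a bar at the median of each list. Most probe sets lie near 0 and open, none of the other AP-1 genes is filled, and among those filled in post minus BBDR.+/+ Mapk9 (-1.19) lies lowest and Klf2 (0.90) highest.

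Markers of other liver cell types also differed between the groups. Kupffer cell markers held 3 of 8 called higher after hyperglycemia than in BBDR.+/+ (Cd163 by 0.73, C1qa by 0.40 and Clec4f by 0.42, adjusted p = 0.00598, 0.0442 and 0.0453). In limma on the arrays of that comparison alone C1qa was not called (adjusted p = 0.0626). Before hyperglycemia 0 of the 8 were called, with 5 under an unadjusted p of 0.05. The summed signal of the 8 was 8666 to 8813 in BBDR.+/+, 10330 to 10820 before hyperglycemia and 10800 to 11270 after it. Of 7 neutrophil markers, S100a9 was higher than in BBDR.+/+ by 1.66 before and 1.46 after hyperglycemia (adjusted p = 0.00105 and 6.33e-04), S100a8 by 1.21 and 1.29 (adjusted p = 0.00366 and 8.11e-04), and the sum was 161.5 to 169.6 in BBDR.+/+, 260.4 to 322 before and 268.6 to 274.3 after hyperglycemia. The median difference of the 7 was 0.12 before and 0.15 after hyperglycemia. After it they ranged from -0.32, for Ccr2, which marks monocytes rather than neutrophils, to 1.46 for S100a9. The 9 lymphocyte markers summed to 525.1 to 541.9 in BBDR.+/+, 460.6 to 522.3 before hyperglycemia and 463.1 to 466.6 after it. Against BBDR.+/+, Cd8b was called lower after hyperglycemia (-0.45, adjusted p = 0.0353), with means of 4.80 after it and 5.25 in BBDR.+/+. The median difference of the 9 was then -0.21, from -0.47 for Cd3d to 0.245 for Ms4a1, and 2 were above 0. Cd8a gave 0.036 on its brightest probe set. Its other probe sets gave 0.21, without passing, and -0.43, called lower (adjusted p = 0.0497) but not among the named calls counted above. The 7 endothelial markers summed to 3864 to 4221 in BBDR.+/+, 4842 to 4932 before and 4491 to 4666 after hyperglycemia, with Pecam1 called higher after it (0.49, adjusted p = 0.034). The 10 stellate cell markers summed to 5159 to 5589 before hyperglycemia, 3976 to 4623 after it and 4474 to 4514 in BBDR.+/+. On their brightest probe sets, Col1a1 was higher before hyperglycemia than in BBDR.+/+ (0.60, adjusted p = 0.0284). Col1a1 and Col1a2 were lower after it than before (-0.51 and -0.62, adjusted p = 0.031 and 0.0293). The other Col1a1 probe set, 1370864_at, was not called lower after hyperglycemia than before (means of 7.50 and 7.63), nor was the other of Col1a2. Alas2, of 4 red cell markers that summed to 6627 to 7344 before hyperglycemia, 5190 to 5489 after it and 5944 to 6316 in BBDR.+/+, was higher before hyperglycemia than in BBDR.+/+ (0.56, adjusted p = 0.0352). The 5 bile duct markers had 0 calls, 0, 0 and 1 under an unadjusted p of 0.05, and sums of 365.6 to 444.4 over the 6 arrays. No marker is at 0, since array signals have no true 0, and the part of these cells in the member results was not tested.

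No member spanned 1 log2 unit between group means on its brightest probe set, the size set for a search of genes with a like pattern. After its values were seen, Dusp1 1368147_at was taken for that search in its place, over the 45 other genes whose brightest probe set spanned that much. Over the 6 arrays the highest Pearson r values were those of the Golgi protein gene Golph3 (0.998), Acadsb (0.995), Mug1 (0.986), Wac (0.986) and Sdr42e1 (0.983), and 13 of the 45 exceeded 0.9. These points share arrays, labelled RNA and the 2 arrays that stand apart, and the r values describe them without a test. Acadsb, a mitochondrial enzyme of branched-chain amino acid breakdown, had group means of 7.10 in BBDR.+/+, 6.17 before hyperglycemia and 4.63 after it. Mug1, a plasma protease inhibitor made by rat liver, had means of 11.72, 11.14 and 9.34 in the same order.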

How the data were processed

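Total liver RNA was amplified, labelled and hybridized to Affymetrix RG230 2.0 arrays. The authors quantified the arrays with Expression Console, used Partek Genomic Suite for normalization, and deposited log2 signals, 1 per probe set and array. Their algorithm and versions are not given in those sources. Of 31099 probe sets, 57 controls were set aside, and 31042 were tested without a signal filter. limma 3.58.1 (R 4.3.3) was fitted to all 6 arrays with 1 mean per group (3 residual and 7.70 prior degrees of freedom), and p-values were adjusted by Benjamini-Hochberg. An exact permutation of 2 against 2 arrays cannot go below p = 0.3333 (two-sided), and the number of arrays limits the precision. Rank product used 100 permutations and a share of false positives under 0.20. Both tests were run on simulated data with independent noise on each array. Those data held no 3' to 5' difference and no effect shared by replicate number, so they cannot speak to either. Alternatives were quantile normalization, centring on 45 ribosomal protein probe sets, the top 60% of probe sets, the arrays of 1 comparison, a replicate block, the methods' t-test, a 3' to 5' covariate, a gene's mean over its probe sets and the loss of each array in turn. For list genes they were added after the data were seen. List genes were named when called, up to 4 per list and comparison with the smallest p (for cell types, up to 3 on the brightest probe set). Members, lists and tests were chosen with earlier results of these data known. Gene positions and upstream sequences came from RefSeq on GRCr8. All 10 members matched for position and 5 for sequence. Python 3.11.15, pandas 2.3.3 and matplotlib 3.10.9 drew the figures.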

Additional observations from a re-analysis of the deposited data

How the results depend on the processing

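The limits are 2 arrays per group and a 3' to 5' difference that separates post-hyperglycemia. In quantile normalization, the top 60% of probe sets and the fit to the arrays of a comparison, the members' calls stayed within 1.5 times the counts given. In counts of all probe sets (1599, 677 and 223 in the order of the report), the arrays of the comparison alone gave 413 for post- against pre-hyperglycemia. Rank product called 757 and 398 in the comparisons with BBDR.+/+, with 1 member in each. The methods' t-test after adjustment called 0, 0 and 1 probe sets and 0, 0 and 0 members, and 3362, 2790 and 2784 before it. Centring on ribosomal protein probe sets gave 1856 (1015 higher, 841 lower), 1033 (742, 291) and 202 (88, 114), against 587 and 1012, 223 and 454, and 144 and 79 without it, and 2 members (1 higher, 1 lower) in post- against pre-hyperglycemia.

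Replicates share only a number, 1 or 2, and were not treated as paired. The correlation of their gaps between groups over all probe sets was 0.11 (pre- and post-hyperglycemia), 0.26 (pre-hyperglycemia and BBDR.+/+) and 0.14 (post-hyperglycemia and BBDR.+/+). Over the 14 member probe sets it was higher, at 0.45, 0.54 and 0.51 in the same order. Of these 14, 9 were higher in replicate 2 in all 3 groups, beside 16.3% of all. With a replicate block limma called 2273, 1191 and 408 probe sets and 4, 2 and 2 members, which added Jun 1389528_s_at and 1374404_at (post-hyperglycemia against BBDR.+/+), Atf3 (post- against pre-hyperglycemia, and pre-hyperglycemia against BBDR.+/+) and Dusp1 1368147_at (pre-hyperglycemia against BBDR.+/+).

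With the 3' to 5' covariate limma called 0, 0 and 115 probe sets and 0, 0 and 0 members. Differences from BBDR.+/+ after hyperglycemia that changed sign were Fos 0.17 (1371283_at) and 0.15 (1375043_at), Jun 0.50 and 0.92, Atf3 0.57, Myc 0.32, Ier2 1.57, Sesn2 -0.21, Cebpg 0.18, Mapk9 0.10, Elk4 -0.25, Rasa1 0.44, Nop58 -0.24 and Klf6 0.57. Against pre-hyperglycemia they were Dusp1 1368147_at 0.21, Fos 1371283_at 0.31, Fosb 0.33, Jun 0.63 and 0.95, Egr1 0.23, Myc 0.033, Mapk9 0.17, Nop58 -0.15 and Klf6 0.33, and before hyperglycemia Fos 1375043_at 0.012. The cause was not tested. Other sign changes were near 0. Fos 1375043_at became 0.015 with quantile normalization and 0.042 with ribosomal centring against BBDR.+/+ after hyperglycemia, and 0.018 with quantile normalization before it. Against pre-hyperglycemia, ribosomal centring gave Fos 1371283_at 0.020 and Egr1 0.0073. Before hyperglycemia Junb became -0.0355 and -0.035 with them.

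With each array left out in turn, the counts of all probe sets ranged from 291 to 1567, 112 to 537 and 12 to 212, the lowest without BBDR.+/+ replicate 2 in the comparisons with BBDR.+/+ and without pre-hyperglycemia replicate 2 in the other. Members called ranged from 1 to 2 and from 0 (without post-hyperglycemia replicate 1) to 2 in the comparisons with post-hyperglycemia. Ranges that span 0 after hyperglycemia against BBDR.+/+ were -0.12 to 0.10 (Fos 1375043_at), -0.0485 to 0.089 (Fosb), -0.14 to 0.30 (Junb), -0.44 to 0.091 (Myc) and -0.36 to 0.20 (Ier2). Against pre-hyperglycemia they were -0.24 to 0.062 (Fos 1371283_at), -0.16 to 0.28 (Junb) and -0.038 to 0.52 (Ier2), and before hyperglycemia -0.12 to 0.11 (Fos 1375043_at) and -0.12 to 0.17 (Junb).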
